A study of Drosophila melanogaster with 28 samples.

Results

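The translation landscape of normal Drosophila melanogaster testis was described from 4 of the 28 libraries of the series, 2 of ribosome footprints and 2 of RNA-seq, all from wild type (WT) testis of the earlier testis set. They were chosen by their labels alone, and no knockout library entered any value. The flies were y1 w1118 males aged 2 to 3 days, and 600 pairs of testes were pooled for each sample. Dissection was done in buffer with cycloheximide at 100 µg/ml, a drug that stops ribosomes during elongation, and these WT flies carried no other allele or treatment in the labels. The series as a whole compares WT flies with a knockout of the tRNA methyltransferase Mettl1 in testis and body. WT footprints of the later testis set and of body, 2 libraries each, also entered the grouping of transcripts into loci. They were otherwise used to place loci beside other samples. Footprints of the later set were in addition set against the RNA-seq of the earlier set in an alternative fit. The labels do not say whether footprints and RNA of a given replicate number came from the same lysate. The p-values below set the difference between footprints and RNA-seq against the spread between the 2 libraries of each assay. They do not cover the difference in protocol between the assays.

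In ribosome profiling, mRNA is digested down to the pieces covered by a ribosome, and these are sequenced, so that the footprints on a transcript count the ribosomes engaged on it. Set against RNA-seq of the same tissue, they give the translational efficiency, which is the ribosome load of a transcript relative to its amount. In the testis this relation is known to vary widely, because transcription largely ceases by the time of the meiotic divisions. Many mRNAs are made early, stored, and translated only in elongating spermatids. Short reading frames upstream of the main coding region are known as a common means of lowering translation of the main frame.

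The deposited counts refer to FlyBase transcripts, and transcripts listed near each other with near-identical counts were collapsed into 16478 loci, 6760 of them of several transcripts. Summed over these loci, RNA-seq gave 9136873 counts in replicate 1 and 10398315 in replicate 2, and footprints gave 2825765 and 673689. At least 10 counts were reached at 12941 and 13119 loci in RNA-seq, and at 11320 and 7707 loci in footprints. Loci are not independent of each other; across them the rank correlation (Spearman's rho) was 0.993 between the RNA-seq replicates, 0.956 between the footprint replicates and 0.891 to 0.924 between the assays. The files pair no gene names with the identifiers. Synonyms in the reference gene table named 43 of them, so most loci are given by identifier only, the defining markers of testis could not be looked up, and no sequence is shown.

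Footprint level departed from RNA level at many loci in both directions, and how many were called depended on the fit. Footprint and RNA-seq libraries were made by different protocols, and an effect of protocol cannot be told apart from one of ribosome load. Efficiency was taken as the log2 ratio of footprints to RNA-seq after TMM scaling, which sets the typical locus near 0, so each value is relative to the other loci and says nothing of total translation. It was tested with edgeR's quasi-likelihood test, and a locus was called at a Benjamini-Hochberg adjusted p under 0.05. Of 12773 loci tested, 7219 were called, which is 56.5%. Footprints were above RNA at 3494 loci (27.4%) and below at 3725 (29.2%). The median called locus lay 2.03-fold above or 2.16-fold below its RNA. When the test asked for a departure of more than 2-fold (edgeR's glmTreat), 846 loci were called above (6.62%) and 1101 below (8.62%), 1947 in all (15.2%). DESeq2's Wald test, run without the low-count filter, called 4852 of 16034 loci. The count was 4486 of 12272 without RNA-seq replicate 1 and 4551 of 12254 without replicate 2; in these fits the RNA-seq arm has 1 library, which is assumed to vary like the footprint pair. With the footprints of the later set, 9048 of 13384 loci were called, and past 2-fold 1376 lay above and 1320 below, so the excess of loci below did not hold there. Each later-set efficiency in this report sets those footprints against RNA-seq of the earlier set, and RNA-seq of the later set was not used. Differences between the sets cannot be told apart in it from differences in efficiency.

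**Figure D1:**
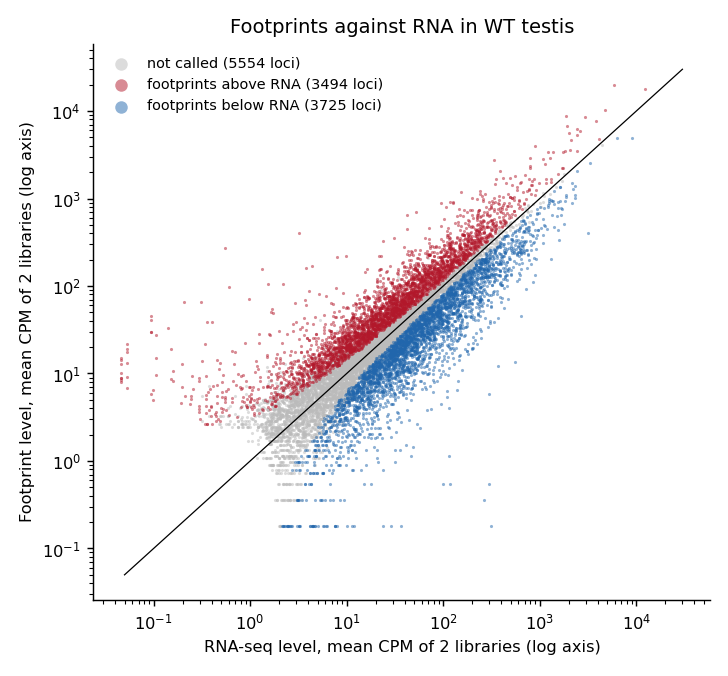
Mean footprint level against mean RNA-seq level (both in CPM, TMM-scaled, log axes, 2 libraries each) for each locus with counts in both assays, with the line of equal level and colours for the calls of edgeR. The 3494 loci called above RNA and the 3725 called below lie on both sides of the line over the whole range of levels, and the low ends of the cloud are set by the filter on low counts.

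The middle 50% of all loci tested spanned a 2.66-fold range of log2 efficiency, and the lowest and highest 5% lay beyond -1.99 and 1.71. Among 5336 loci with a mean of at least 50 counts in each assay, where counting error is smaller, the middle 50% spanned 2.41-fold and the outer 5% lay beyond -1.43 and 1.68. The spread was wider than the replicate error, most clearly at the well counted loci. The median SE was 0.20 on the log2 scale over all loci and 0.12 over the well counted ones. Efficiencies computed from replicate 1 alone and from replicate 2 alone, which share no library, had a Pearson r of 0.80 across all loci and 0.95 across the well counted ones. Their difference had an SD of 0.82 across all loci and 0.33 across the well counted ones. The assays also differed in which loci led. Of the 10 loci with the highest RNA level 4 were among the 10 with the highest footprint level, and the overlap was 53 of the top 100 and 662 of the top 1000.

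The translated pool was led by a few very abundant loci. The 10 leading loci held 8.29% and 10.5% of the footprints and 5.85% and 5.89% of the RNA-seq counts. FBtr0076256, a short frame with an entry of 54 in the length column, had 13359.6 and 26217 CPM of footprints against 6089.8 and 5658 CPM of RNA. The footprint replicates differ widely at this locus, but both lie above both RNA values (log2 efficiency 1.75, SE 0.26, adjusted p = 0.000835 in edgeR). With the footprints of the later set the efficiency was 0.81 (adjusted p = 0.00567). Per 100 units of length it had 36645 CPM of footprints, the densest of the 10 loci with most footprints.

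FBtr0073177, with a length of 754, had 16716 and 19037 CPM of footprints against 11991 and 12390.5 CPM of RNA, the highest RNA level of all loci. Its footprints exceeded its RNA by 1.47-fold (adjusted p = 0.00109 in edgeR), and per 100 units of length it had 2371 CPM of footprints. With the footprints of the later set the excess was 0.12 on the log2 scale and was not called (adjusted p = 0.513 in edgeR). FBtr0083828 and FBtr0083826, listed on adjacent lines, were the next most abundant in RNA and went the other way. Their footprint levels were similar and they may share reads, so their separate efficiencies are uncertain. FBtr0083828 had 4768 and 5187 CPM of footprints against 8819 and 9044 CPM of RNA, an efficiency of -0.85 (SE 0.08, adjusted p = 6.24e-05 in edgeR). FBtr0083826 had 4689 and 5085 CPM of footprints against 6201 and 6337 CPM of RNA, an efficiency of -0.36 (adjusted p = 0.00458), and this call is lost without RNA-seq replicate 1 (adjusted p = 0.0562) or replicate 2 (adjusted p = 0.0827).

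The other loci with most footprints ran from 5661 to 10154 CPM. A trio listed within 15 lines of each other, FBtr0082351, FBtr0082362 and FBtr0082357, has length entries of 253, 253 and 255 and similar footprint levels of 10154, 8754 and 8563 CPM, whereas their RNA levels were 4791, 1890 and 2938 CPM. They may share reads, so their separate efficiencies of 1.08, 2.21 and 1.54 are uncertain. FBtr0080101 had 6852 and 6730.2 CPM of footprints against 1980.5 and 1864 CPM of RNA, a 3.53-fold excess (adjusted p = 2.20e-06 in edgeR). Its footprints in the later set were lower, at 1897 and 1409 CPM, and against those the efficiency was -0.02. All 10 of these loci were called above RNA, but they were picked for high footprints, so that count carries no information on the pool.

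Among 5193 called loci with at least 10 counts in each of the 4 libraries and no overlap between the assays, the 10 highest efficiencies ran from 4.55 to 6.97, which is 23.5-fold to 125-fold. Their RNA levels were 1.32 to 7.96 CPM. Several lay near the minimum of 10 counts, such as FBtr0330146 at 10 and 17 RNA-seq counts. Such loci could enter the test through the footprints in which they are high, so the group is no sample of scarce transcripts. The highest belonged to FBtr0305053, whose length entry of 28 marks a very short frame. It had 386 and 421 CPM of footprints (1067 and 269 counts) against 3.50 and 2.88 CPM of RNA (33 and 31 counts), with an SE of 0.13 and an adjusted p of 3.18e-07 in edgeR. The footprints of the later set gave 227 and 316 CPM, again far above the RNA.

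FBtr0334906 had 210.4 and 224 CPM of footprints against 7.74 and 8.19 CPM of RNA, a 26.9-fold excess with an SE of 0.11. Its footprints in the later testis set were 192 and 175 CPM and in body 225 CPM on average, so its footprint level was similar in all of these libraries. FBtr0082569 was as even in the testis sets, with 53.9 and 46.9 CPM of footprints and 48.8 and 46.3 CPM in the later set. Its RNA of 1.70 and 1.58 CPM rests on 16 and 17 counts.

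Other loci of this group varied between footprint libraries. FBtr0330146 had 60.0 CPM in footprint replicate 1 and 252 CPM in replicate 2, but 5.15 and 6.22 CPM in the later set. FBtr0088124 and FBtr0088158, listed 2 lines apart with the same length of 244, had 36.5 CPM each in replicate 1 and 172 and 175 CPM in replicate 2. They may share reads, so they may not be separate loci of this group. In body footprints they reached 2714 and 2785 CPM, far above any testis library, and in the later testis set they fell between 13.5 and 135 CPM. FBtr0078478 had 136 and 205 CPM in testis footprints, 4.87 and 3.91 CPM in testis RNA and 5466 CPM in body footprints. For these body-rich loci the share of tissue other than testis in a library was not tested.

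Under the same limits the 10 lowest loci had abundant RNA, which the minimum of 10 footprint counts in each library requires of a low efficiency. Loci with fewer footprints, such as PIG-M described further on, could lie lower. The 10 efficiencies ran from -3.85 to -3.20, which is 14.4-fold to 9.18-fold below, at RNA levels of 146 to 645 CPM. FBtr0080301 had 44.5 and 45.3 CPM of footprints (123 and 29 counts) against 646 and 645 CPM of RNA, an efficiency of -3.85 (SE 0.10, adjusted p = 5.66e-07 in edgeR). FBtr0112579 had 17.0 and 21.9 CPM of footprints against 205 and 199 CPM of RNA. FBtr0070660, with a length of 90 the shortest of the 10, had 19.9 and 18.8 CPM of footprints against 202 and 198 CPM of RNA. In all 10 the footprint values lay below the RNA values without overlap, as the rule for naming them required, and the mean footprint level of the later set also lay below the RNA in all 10. Against the later set they were less low, at -3.39 to -1.62, and all 10 were called.

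**Figure D2:**
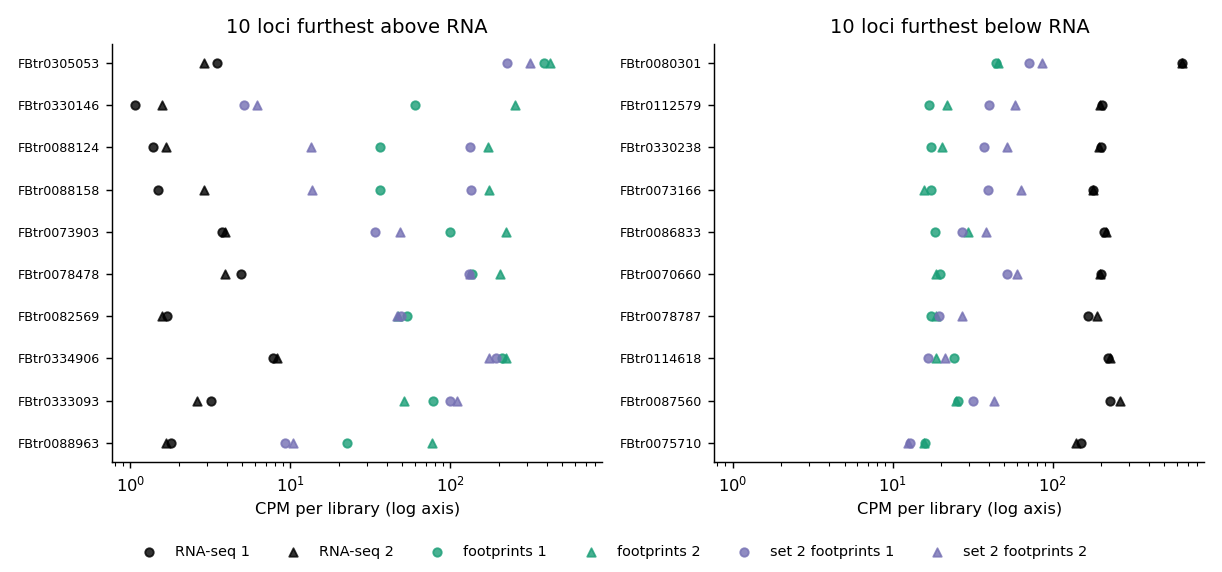
Level per library in CPM (log axis) of the 10 loci furthest above RNA (left) and the 10 furthest below (right), with RNA-seq in black, footprints of the same set in green and footprints of the later set in violet; circles are replicate 1 and triangles replicate 2. On the left the RNA lies at 1.06 to 8.19 CPM and the footprints of several loci differ widely between libraries; on the right the footprint replicates of the same set lie close together, and those of the later set lie higher at most loci.

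Transcripts with no footprints at all were rare. Of 8740 loci with at least 100 RNA-seq counts in each library, 2 had 0 footprints in both libraries and 79 had fewer than 10 footprints in both together. FBtr0074329 had 85.9 and 83.6 CPM of RNA (811 and 899 counts) and no footprint, which puts its footprints at least 96.2-fold lower when 3 counts over both libraries are taken as the limit. In the later set it had 31 and 40 footprints, 2.53 and 6.22 CPM. FBtr0091872 had 125 and 113 RNA counts and no footprint in either testis set or in body, a level at least 13.5-fold lower by the same limit. Beyond 4 on the log2 scale lay 83 loci above and 76 below, and 41 and 57 of these had 3 or fewer counts in the low assay, so their fitted sizes are not interpretable. These limits cover counting error only.

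Short coding regions had more footprints for their RNA than long ones. The length column has no stated unit. Its entries fall about evenly on the remainders 0, 1 and 2 after division by 3 (10030, 10341 and 9969 transcripts), and the entry of His4r, which encodes histone H4, is 94, close to the length of that protein in amino acids, so the entries were read as codons. In the shortest 10% of loci, of length 134 or less, the median efficiency was 0.50. It was 0.11 in the fifth class, of length up to 420, and -0.55 in the longest class, above 1160. The share of loci called above RNA went from 44.4% in the shortest class to 10.3% in the longest, and the share called below from 16.9% to 48.8%, against 27.4% and 29.2% of all loci. The shortest class held 12.2% and 13.8% of the footprints but 8.59% and 8.41% of the RNA-seq counts, and the longest class 8.41% and 8.17% of the footprints but 13.1% and 13.4% of the RNA-seq counts.

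This order was the same in both replicates, with medians of 0.48 and 0.43 in the shortest class and -0.55 and -0.49 in the longest. It was also present at each RNA level. When loci were split into 3 equal classes by RNA level and 3 by length, the median fell from 0.57 in short to -0.02 in long loci at low RNA, from 0.31 to -0.36 at middle RNA and from 0.09 to -0.59 at high RNA. With the footprints of the later set against the same RNA-seq, the shortest and longest 10% had medians of 0.85 and -0.70. Across 12773 loci Spearman's rho between length and efficiency was -0.27, so length orders only a small part of the differences. How reads near the ends of a coding region were counted was not stated, and its part in this order was not tested.

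**Figure D3:**
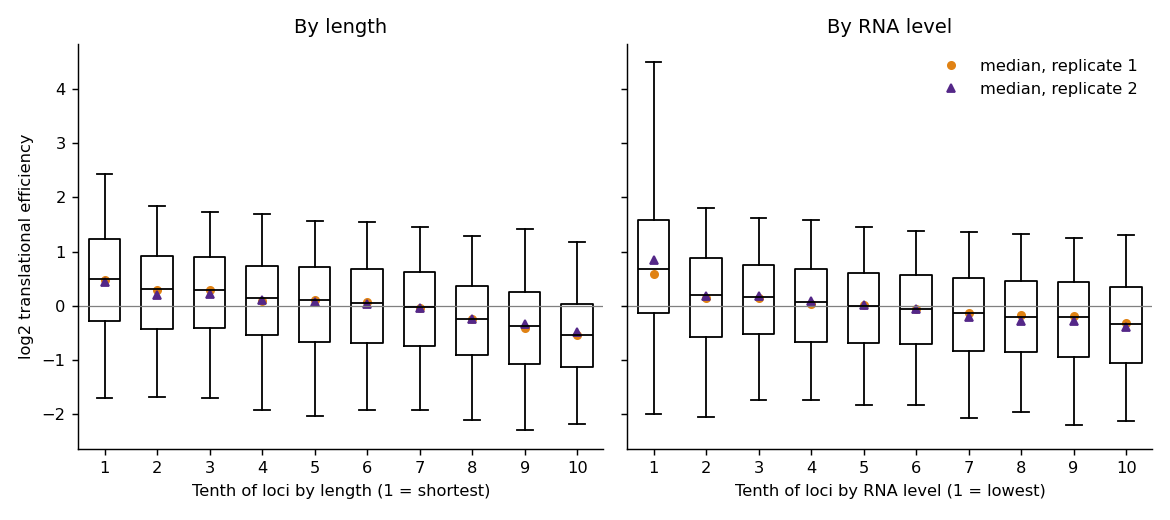
log2 translational efficiency in 10 equal classes of loci by length (left) and by RNA level (right). Boxes give the quartiles and median over the loci of a class, with efficiencies fitted on 4 libraries. Whiskers run from the lowest 5% to the highest 5% of those loci, and coloured points give the medians of each replicate alone. The medians step down from 0.50 to -0.55 with length and from 0.68 to -0.35 with RNA level, while the boxes of neighbouring classes overlap widely.

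Among the loci tested, abundant transcripts had fewer footprints for their RNA than scarce ones. The median efficiency was 0.68 in the lowest 10% of loci by RNA level, 0.21 in the next class and -0.35 in the highest. Of the highest class, above 170.4 CPM, 54.1% were called below RNA and 29.1% above. The RNA level is also the denominator of the efficiency, which by itself makes low RNA go with high efficiency. When classes were taken from 1 RNA-seq replicate and efficiency from the other, the lowest class had medians of 0.55 and 0.63 and the highest -0.35 and -0.38. Loci of the lowest class, at 0 to 3.20 CPM of RNA, could also enter the test through their footprints, so that class is no sample of all scarce transcripts. Taking classes and efficiency from different RNA-seq replicates does not remove this selection. The highest class held 57.8% and 58.6% of all footprints and 59.9% and 60.1% of the RNA-seq counts. Its share of the footprints was thus close to its share of the RNA.

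Loci whose footprints are strongest in body had the highest median efficiency in the earlier testis set. This order did not hold with the footprints of the later set, which also define the classes. The tissue bias was taken from other libraries, as the ratio of WT footprints of the later testis set to WT body footprints. Median efficiency was 1.02 at 209 loci with a body excess over 32-fold and 0.77 at 810 loci with an 8 to 32-fold body excess. It was -0.06 at 5132 loci within 2-fold, -0.20 at 2011 loci with an 8 to 32-fold testis excess and -0.35 at 69 loci with a testis excess over 32-fold. In the body class of 8 to 32-fold 43.3% of loci were called above RNA and 5.19% below, whereas in the testis class of that size 25.9% were above and 43.8% below. The body-biased classes were low in testis RNA, with medians of 5.88 and 7.64 CPM against 89.6 and 136 CPM in the testis-biased ones. The scarcest loci among them could enter the test through their footprints.

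The body and testis ends stayed apart within the high-RNA class, with medians of 1.09 (21 loci) and 0.88 (71 loci) for the body-biased classes and -0.32 (1439 loci) and -0.45 (59 loci) for the testis-biased ones. At low and middle RNA the order did not hold at its testis end: the testis-biased class of 8 to 32-fold had medians of 0.66 (92 loci) and 0.063 (480 loci), and that over 32-fold had 1.26 at middle RNA (9 loci). The body-biased loci were somewhat higher in footprint replicate 2, with medians of 0.96 and 1.13 in replicates 1 and 2 for the class over 32-fold. That class held 0.582% and 0.856% of the footprints and 0.280% and 0.369% of the RNA-seq counts. In whole testes, fewer cells of a type and less RNA per cell cannot be told apart, and the part of non-germline tissue in these values was not tested.

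Against the footprints of the later set the class with a testis excess over 32-fold had a median of 0.50, not -0.35, and that with the body excess had 0.43. The later set also defines the classes, so this comparison shares its libraries with them. That by itself raises the testis-excess class and lowers the body-excess class. The comparison therefore cannot decide whether the order holds.

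**Figure D4:**
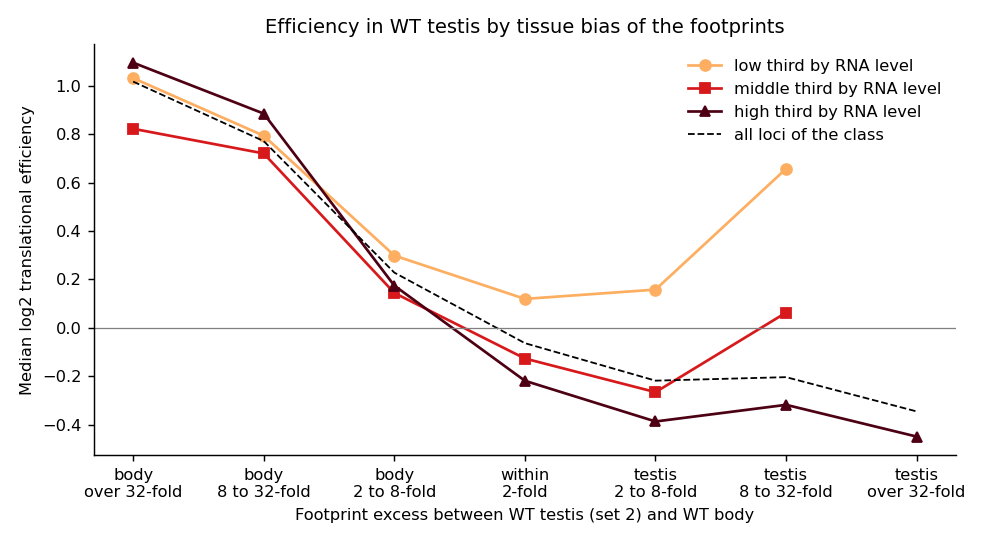
Median log2 translational efficiency in WT testis for classes of loci by footprint excess between WT testis of the later set and WT body, for 3 equal classes by RNA level and for all loci (dashed); points with fewer than 20 loci are left out. The medians fall from 1.02 at the body end to -0.35 at the testis end for all loci, and the low-RNA and middle-RNA lines turn up to 0.66 and 0.063 at the testis excess of 8 to 32-fold.

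Among transcripts that carry an annotated upstream reading frame, more were called below their RNA than above. The reference gene table names 29 transcripts of the files by an upstream frame. Several of these frames are genes with names of their own, such as Tfb5, Dpm2 and Polr3K. Which frame the deposited counts cover was not stated, so each value belongs to the transcript and may come from either frame. Their length entries, such as 77 for Mvk and 896 for BicC, were not matched to either frame. The group may therefore mix counts of main frames with counts of upstream frames. A gene name below identifies the transcript and not the frame that was counted. Of the 27 tested, 13 were called below RNA, 1 above and 13 were not called, with a median efficiency of -0.78 against 0.0049 over all loci, where 29.2% were below and 27.4% above. The 2 that were not tested had too few counts. DESeq2 called 9 of 29 below and 1 above, and the footprints of the later set put 16 of 27 below and 4 above. These transcripts were taken because the table names them, and their order of efficiency is described with no test of the group. Any effect of the upstream frames on efficiency was not tested.

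The lowest was PIG-M, a mannosyltransferase of the GPI anchor pathway, whose transcript is the only one here with 3 annotated upstream frames. It had 4.70 and 3.13 CPM of footprints (13 and 2 counts) against 71.9 and 76.5 CPM of RNA (678 and 822 counts), an efficiency of -4.07 (SE 0.20, adjusted p = 4.05e-06 in edgeR), or 16.8-fold below. PIG-P, a subunit of the enzyme that starts GPI anchor synthesis, had 4 and 0 footprints against 55 and 60 RNA counts. Its efficiency of -2.28 was called (adjusted p = 0.0108), but the call is lost without RNA-seq replicate 1 or 2 (adjusted p = 0.0903 and 0.0838) and with DESeq2 (adjusted p = 0.0992). Mettl5, a methyltransferase of ribosomal RNA, had 6.87 and 6.25 CPM of footprints against 27.9 and 26.9 CPM of RNA, 4.05-fold below (adjusted p = 0.000128), but -0.75 on the log2 scale with the later set (adjusted p = 0.0039).

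CG31917, whose transcript also carries the frame of Tfb5, a subunit of the transcription and repair factor TFIIH, had 5.78 and 7.82 CPM of footprints against 37.5 and 38.7 CPM of RNA, 6.12-fold below (adjusted p = 3.28e-05 in edgeR). BicC, an RNA-binding repressor of translation known from the fly ovary, was better counted, with 192 and 55 footprints. It had 69.4 and 86.0 CPM of footprints against 160.0 and 175 CPM of RNA, an efficiency of -1.18 (SE 0.12, adjusted p = 9.61e-05), and of -0.67 with the later set (adjusted p = 0.00276). Its footprints were far stronger in testis than in body, at 91.7 CPM in the later set against 3.66 CPM.

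Tim10, an import chaperone of the intermembrane space, had 43.0 and 32.8 CPM of footprints against 68.2 and 71.1 CPM of RNA, an efficiency of -0.78 (adjusted p = 0.0017 in edgeR). ND-MNLL, a subunit of respiratory complex I, had an efficiency of -0.70 (adjusted p = 0.0321). Both calls are lost with the footprints of the later set, where the values were -0.19 and -0.25, and on thinning to the smallest library (adjusted p = 0.0603 and 0.34). The call of ND-MNLL is also lost with DESeq2 (adjusted p = 0.166) and without footprint replicate 1 (adjusted p = 0.0813) or RNA-seq replicate 1 (adjusted p = 0.243).

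Pepck1, an enzyme of gluconeogenesis, was the 1 transcript of the group above its RNA. It had 40.1 and 32.8 CPM of footprints against 16.2 and 14.0 CPM of RNA, 2.52-fold above (adjusted p = 0.000432 in edgeR). It is also the most body-biased of the group, with body footprints at 1297 CPM and those of the later testis set at 26.2 CPM. Fatp1, a fatty acid transport protein, had an efficiency of 0.42 (adjusted p = 0.0656) and 255 CPM in body footprints. vnc, the catalytic subunit of an N-terminal acetyltransferase, had 35.4 and 53.2 CPM of footprints on either side of its RNA at 39.4 and 40.1 CPM.

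Of the 10 transcripts that the table names as a whole, 3 were called below RNA, 2 above and 5 were not called. They include 3 subunits of the GATOR2 complex, which acts on TORC1 and so on growth and nutrient sensing. Wdr59 had 11.2 and 20.3 CPM of footprints against 64.5 and 65.7 CPM of RNA, an efficiency of -2.31 (SE 0.20, adjusted p = 4.93e-05 in edgeR). mio had 11.6 and 17.2 CPM against 33.3 and 32.8 CPM, an efficiency of -1.36 (SE 0.20, adjusted p = 0.000748). Thinned to the smallest library its efficiency was -0.88 and not called (adjusted p = 0.0592), and with the later set it was -0.80 and called. Wdr24 had 5.06 and 9.38 CPM against 5.09 and 5.95 CPM, an efficiency of 0.14 with an SE of 0.38 that was not called, and -0.53 with the later set, not called either. The differences between these subunits were not tested.

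kis, a chromatin remodeller with one of the longer frames here (length 5313), had 62.2 and 61.0 CPM of footprints against 212 and 243 CPM of RNA, 3.67-fold below (adjusted p = 9.44e-06 in edgeR). His4r lay on the other side, with 302 and 332 CPM of footprints against 222 and 215 CPM of RNA, 1.43-fold above (adjusted p = 0.000982). alpha-Spec, a spectrin of the membrane skeleton and of the fusome in germline cysts, had 349 and 361 CPM of footprints against 235 and 265 CPM of RNA, 1.41-fold above (adjusted p = 0.00178), although its length of 2406 falls in the class with the lowest efficiencies. Its call is lost without RNA-seq replicate 1 (adjusted p = 0.0625).

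Uba1, the ubiquitin-activating enzyme, had 410.4 and 446 CPM of footprints against 398 and 366 CPM of RNA, an efficiency of 0.15 that was not called (adjusted p = 0.155). LanA, a laminin subunit of basement membranes, had 49.9 and 59.4 CPM against 57.9 and 59.8 CPM, and its assays overlapped. sle, a nucleolar protein, had 564 and 472 CPM against 616 and 593 CPM, an efficiency of -0.20 (adjusted p = 0.101). Among 4 transcripts named by their main frame only, HDAC3, a histone deacetylase, SuUR, a chromatin protein that suppresses replication in polytene chromosomes, and CG16974 were called below RNA, at -2.35, -1.84 and -1.97. For HDAC3 this rests on 9 and 0 footprints and for SuUR on 10 and 2.

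**Figure D5:**
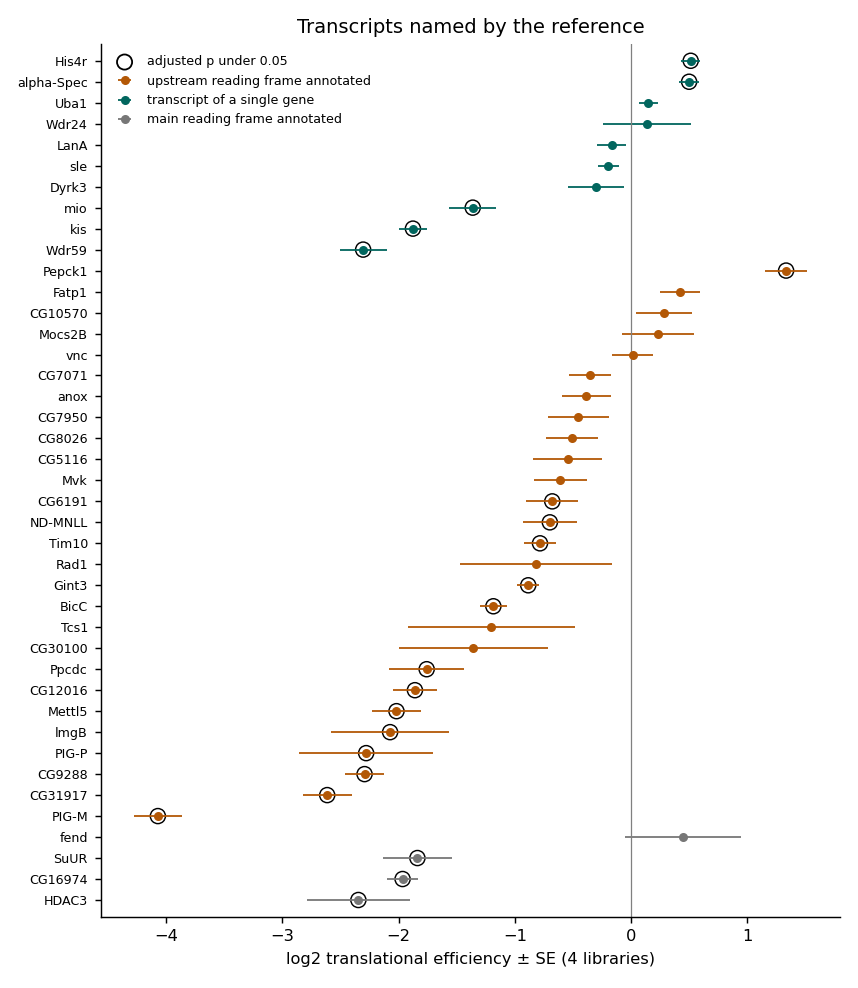
log2 translational efficiency with its SE (edgeR, 4 libraries) of the 41 tested transcripts that the reference gene table names, by kind of annotation; open circles mark an adjusted p under 0.05. Of the 27 transcripts with an annotated upstream frame 13 are called below 0 and Pepck1 alone above, with PIG-M lowest at -4.07.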

How the data were processed

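Each deposited file holds 1 library, with raw counts per FlyBase transcript that the authors made and a second number per transcript, used as a length. The submitters' processing notes name CASAVA 1.8 and STAR 2.7.0a and the build dm6; the counting tool, annotation release and use of strand or shared reads are not given in the sources used here. Loci that overlap, lie antisense or have near-identical copies are therefore uncertain. Per the labels' protocols, footprint libraries used linker ligation with T7 transcription, and those of RNA-seq a SEQuoia Express kit. Of 34703 transcripts, 4363 had no length entry and 0 counts.

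Transcripts within 50 lines whose counts plus 1 differed by at most 0.3 on the log2 scale in each of 8 WT libraries were linked into a locus, represented by the transcript the reference names or else by that with most counts; 1 of 23636 pairs 1000 lines apart met the limit. This collapse was set after the counts were seen. Genes can still enter as several loci.

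The test was run in R 4.3.3 with edgeR 4.0.16 (TMM scaling, filterByExpr at 10 counts, quasi-likelihood F-test, assay as the only term, Benjamini-Hochberg adjustment); DESeq2 1.42.0 was an alternative. SEs are the estimate over the root of F, CPM are TMM-scaled, single-replicate efficiencies use a prior count of 2, and the tissue ratio a pseudocount of 1 CPM. In simulated data for this comparison (12463 loci), 200 loci were changed, equally up and down. Of these, 56% of the 2-fold and 83% of the 4-fold changes were recovered, and 5 of 144 calls were unchanged loci. A far larger share of loci was called in the reported data (56.5%), so the simulation does not give the error rate there. Loci named by identifier were the 10 highest and 10 lowest efficiencies under the stated limits, the 10 highest footprint and 5 highest RNA levels, and up to 5 with no footprints. The planned gene lists could not be used, since names were paired for 43 identifiers. Transcripts named by the reference were added after the files were seen. Members and lists were chosen with earlier results of these data known.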

Additional observations from a re-analysis of the deposited data

How the results depend on the processing

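Footprint replicate 2 is the shallowest library, and loci named with under 10 footprints rest on few counts. Thinned to the smallest library total, 4351 loci were called (1125 past 2-fold, and 7 upstream-frame transcripts below). With loci under a mean of 50 in either assay left out, the counts were 3901, 948 and 4, over 5336 loci tested. Without collapsing transcripts they were 15181 and 4167 over 25263 transcripts. Leaving out each library in turn gave 4486 to 7720 loci called, 1112 to 2123 past 2-fold and 9 to 14 upstream-frame transcripts below. It gave class medians of 0.32 to 0.54 (shortest 10%), -0.58 to -0.51 (longest), 0.48 to 0.99 (lowest RNA), -0.46 to -0.31 (highest RNA), 0.73 to 1.20 (body excess) and -0.39 to -0.35 (testis excess). With the 50-count minimum, medians were 1.08 and -0.64 (lowest and highest RNA) and -0.51 (testis excess); this filter changes which loci enter. At loci of 1 transcript, an alternative added after the data were seen, the longest 10% had -0.40. With the later set's footprints the medians were 0.85 (shortest), -0.70 (longest), 0.43 (body excess) and 0.50 (testis excess, reversed). The tissue classes are themselves defined with those footprints.

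Of 34 loci named by identifier, FBtr0080101 alone reversed (-0.018, later set). Among reference-named transcripts, reversals were Uba1 (-0.033, 50-count minimum), vnc (-0.064 unfiltered, -0.15 with that minimum, and -0.16 to 0.37 with a library left out), Tcs1 (-1.94 to 0.095 with a library left out, 0.46 with the later set), Rad1 (-1.29 to 0.17, and 0.21), Mocs2B (-0.089 to 0.34, and -0.65), CG10570 (-0.35 to 0.44, and -0.14), Wdr24 (-0.12 to 0.71, and -0.53), and, with the later set, Mvk (0.94), CG7950 (0.65), anox (0.16) and Fatp1 (-0.28). None of these was called in the reported fit except FBtr0080101, and the cause was not tested.

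With the replicate number as a replicate block, 7485 loci were called and 2062 past 2-fold. The labels do not state that numbers pair libraries; replicate differences of the assays had an r of 0.21 over 12773 loci and 0.40 over 5336 well counted ones.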

Other observations

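Loci of many transcripts lay slightly below those of few. Median efficiency was 0.05 at 6796 loci of 1 transcript, -0.01 at 3332 loci of 2, -0.08 at 2141 loci of 3 to 5 and -0.17 at 504 loci of more than 5. The median length rose in the same order, from 361 to 424, 551 and 769, so the number of transcripts and length moved together. The share called above RNA was 27.4%, 27.5%, 27.5% and 24.8%, and the share called below 26.2%, 31.0%, 33.4% and 39.1%.

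Short and long loci, and body-biased and testis-biased ones, differed within classes of the other measure. Among short loci the median was 1.02 with a body excess of 8 to 32-fold (261 loci) and -0.019 with a testis excess of that size (1011 loci). Among long loci it was 0.42 (259 loci) and -0.45 (366 loci).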
